A study of Mus musculus with 2 samples.

Results

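*Penk*, *Tac1*, *Cck* and *Gcg* are 4 genes that code for the precursors of small signaling peptides, and they were followed here in fibroblasts of the healing mouse skin wound. They were taken by symbol from the gene table, which holds 27998 rows. They had been picked because of their measured values in these same libraries, so their levels and ratios between conditions are given as a description. None of these values is used as support for the choice.

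Peptide hormones and neuropeptides are made as parts of longer precursor proteins. Convertases cut the precursor at basic residues, carboxypeptidases trim the ends, and a second enzyme adds the amide that many of these peptides need for activity. *Penk* codes for proenkephalin, the source of the enkephalins, which act on delta and mu opioid receptors. *Tac1* codes for the precursor of substance P and neurokinin A, which sensory nerves release in skin and which act on vessels through the receptor Tacr1. *Cck* codes for cholecystokinin, a peptide of gut and brain, and *Gcg* for the precursor of glucagon and the glucagon-like peptides, best known from pancreas and intestine.

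The mice carried rtTA under the *SM22* promoter (that of *Tagln*, a gene of contractile cells), with tetO-Cre, so that doxycycline turned on Cre in cells in which this promoter is active. Control mice also carried R26-Tomato, a red reporter, and *SM22-SmoM2* mice carried R26-SmoM2/Tomato, which adds an always active form of Smo and thereby forces Hedgehog (Hh) signaling. Both groups were 4 to 5 weeks old and were fed chow holding doxycycline at 20 g/kg from day 1 after wounding. They gave wound dermis 3 days after the epidermis had closed, from which Tomato+ cells were sorted. The wounds of several mice were pooled into 1 library per genotype, so no value below has a replicate and no test between genotypes was possible.

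After filtering, 2856 control cells with a median of 8607.5 UMIs (counted RNA molecules) and 1792 *SM22-SmoM2* cells with a median of 8837.5 UMIs were kept. Fibroblasts numbered 1063 and 1100, with median depths of 12699 and 10947.5 UMIs. The rest were mainly Schwann cells (675 and 294), endothelial cells (608 and 226) and muscle cells (271 and 95). Both libraries held cells with Y-linked UMIs and cells with *Xist*, and the share of the latter differed: 729 control cells and 244 *SM22-SmoM2* cells were called female, against 1454 and 1134 called male. Levels are given as CPM, the UMIs of a gene for every 1000000 UMIs of the same group of cells, with 95% intervals in parentheses that cover counting error only.

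The parts of these messages that become peptides are printed here from the GENCODE vM21 annotation of GRCm38, because they show what each of the counted RNAs could encode. Capitals mark the codons of the peptide, and lower case marks up to 6 bases of the same exon on either side, where cleavage signals can lie. *Penk* (chr4:4133531-4138819, minus strand, 2 exons, 804 coding bases) holds 7 enkephalin copies, 6 of Met-enkephalin and 1 of Leu-enkephalin, all in exon 2, and 5 of them have a pair of basic codons on both sides. In copies 4 and 7 no such pair follows. Their capitals mark the enkephalin sequence and may not mark the whole peptide that is released. The 7 copies use 6 different codings of the pentapeptide. The gene *A830012C17Rik* overlaps *Penk* on the other strand, and whether any of its reads were counted as *Penk* was not tested.
Penk Met-enkephalin 1 (chr4:4134328-4134354): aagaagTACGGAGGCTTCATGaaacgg
Penk Met-enkephalin 2 (chr4:4134307-4134333): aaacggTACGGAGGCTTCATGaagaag
Penk Met-enkephalin 3 (chr4:4134220-4134246): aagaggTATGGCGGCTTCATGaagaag
Penk Met-enkephalin 4 (chr4:4134067-4134093): aagaggTATGGGGGCTTCATGagaagc
Penk Met-enkephalin 5 (chr4:4133995-4134021): aagcgcTACGGGGGCTTCATGagaagg
Penk Leu-enkephalin 6 (chr4:4133935-4133961): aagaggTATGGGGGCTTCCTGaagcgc
Penk Met-enkephalin 7 (chr4:4133842-4133868): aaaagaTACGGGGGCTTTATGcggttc

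*Tac1* (chr6:7554879-7565834, plus strand, 7 exons, 390 coding bases) carries substance P in exon 3 and neurokinin A in exon 6. *Cck* (chr9:121489824-121495694, minus strand, 3 exons, 345 coding bases) carries the octapeptide CCK-8 in exon 3, and *Gcg* (chr2:62474530-62483650, minus strand, 6 exons, 540 coding bases) carries glucagon in exon 3 and GLP-1 in exon 4. In substance P, neurokinin A, CCK-8 and GLP-1 the codon after the peptide is one for glycine, the residue from which the amide is made, and in glucagon and the enkephalins it is not.
Tac1 substance P (chr6:7556726-7556770): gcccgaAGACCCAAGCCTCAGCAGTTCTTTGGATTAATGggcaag
Tac1 neurokinin A (chr6:7559099-7559136): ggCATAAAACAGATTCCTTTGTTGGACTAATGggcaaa
Cck CCK-8 (chr9:121490101-121490136): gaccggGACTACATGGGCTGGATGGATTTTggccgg
Gcg glucagon (chr2:62478560-62478658): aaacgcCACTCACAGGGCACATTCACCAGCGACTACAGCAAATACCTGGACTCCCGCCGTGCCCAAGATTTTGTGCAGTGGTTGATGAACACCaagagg
Gcg GLP-1 (chr2:62476829-62476930): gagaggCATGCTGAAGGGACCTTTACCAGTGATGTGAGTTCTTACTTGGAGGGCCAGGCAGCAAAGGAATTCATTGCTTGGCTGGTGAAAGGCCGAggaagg
The libraries were counted at the 3′ end of the RNA, so the reads do not show which of these exons a molecule contained, and no peptide was measured.

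Among the sorted Tomato+ cells, the UMIs of the 4 genes lay almost wholly in fibroblasts. Dermal cells without Tomato were not profiled, and the genes were picked with these values known, so the shares are a description. Fibroblasts held 46.3% of all UMIs in the control library but 1915 of the 2032 UMIs of the 4 genes, which is 94.2% (93.1 to 95.2). In the *SM22-SmoM2* library they held 70.1% of all UMIs and 13126 of the 13340 UMIs of these genes, or 98.4% (98.2 to 98.6). For single genes the fibroblast share in the control was 91.2% for *Penk*, 94.7% for *Tac1*, 98.7% for *Cck* and 97.6% for *Gcg*.

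In fibroblasts *Penk*, the enkephalin precursor, counted 764 UMIs without and 12232 UMIs with active Smo. These counts, control first, are 54.9 CPM (51.0 to 58.9) and 979 CPM (962 to 996), a log2 ratio of 4.16 (4.05 to 4.26), or 17.8-fold. *Tac1*, the substance P precursor, had 551 and 886 UMIs, which are 39.6 CPM (36.3 to 43.0) and 70.9 CPM (66.3 to 75.7), with a log2 ratio of 0.84 (0.69 to 1.00). Both genes were thus present in the fibroblasts of either genotype.

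The gut hormone genes ran the other way. *Cck* fibroblast UMIs numbered 230 in the control and 3 in *SM22-SmoM2*, 16.5 CPM (14.5 to 18.8) against 0.240 CPM (0.0495 to 0.702), with a log2 ratio of -6.10 (-8.39 to -4.54). *Gcg* had 370 and 5 UMIs, 26.6 CPM (23.9 to 29.4) against 0.400 CPM (0.130 to 0.934), with a log2 ratio of -6.05 (-7.68 to -4.82). At a log2 ratio of 1 or more, 1 of the 4 genes was higher, and at -1 or less 2 were lower; of the 13016 genes with at least 20 fibroblast UMIs, 6.38% were higher and 6.09% lower by the same limits. The 4 genes were chosen on this contrast, so nothing is read from their count. In sums over cells, a smaller share of cells with a gene and less of its RNA per cell cannot be told apart, and the sub-clusters below are therefore given one by one.

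**Figure D1:**
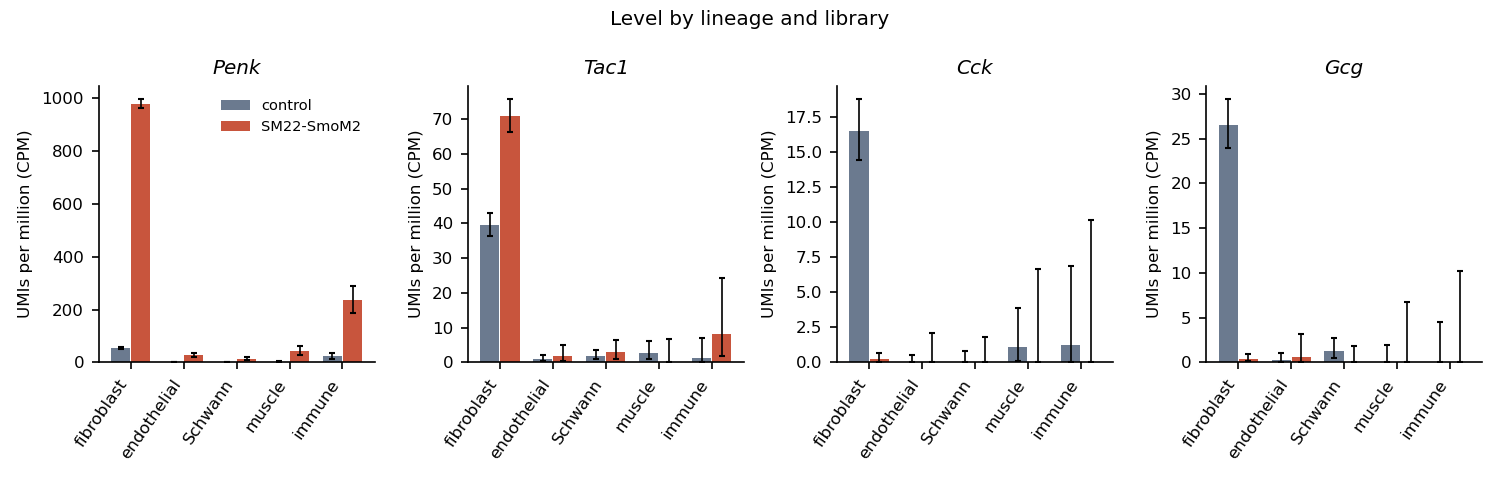
Level of *Penk*, *Tac1*, *Cck* and *Gcg* (CPM, linear axes that differ between panels) in 5 cell lineages of the control and the *SM22-SmoM2* library; bars are summed UMIs scaled to CPM and whiskers 95% counting intervals. Fibroblast bars are the tallest in every panel, at 979 CPM for *Penk* in *SM22-SmoM2* and at 16.5 and 26.6 CPM for *Cck* and *Gcg* in the control.

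*Penk* UMIs outside the fibroblasts were fewer, and in part lay in single cells. The gene in control cells reached 0.904 CPM in endothelial cells (6 UMIs), 1.27 CPM in Schwann cells (6 UMIs) and 1.07 CPM in muscle cells (2 UMIs). In the *SM22-SmoM2* library it was 28.0 CPM in endothelial cells, 14.4 CPM in Schwann cells and 41.7 CPM in muscle cells. In this library 27 of 50 endothelial UMIs were in 1 cell and 13 of 23 muscle UMIs in another. The 91 control immune cells had 19 *Penk* UMIs, 17 of them in 1 cell, and a level of 23.4 CPM (14.1 to 36.6). The 32 immune cells of *SM22-SmoM2* had 85 *Penk* UMIs, 53 of them in 1 cell, and a level of 235 CPM (187 to 290).

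Genes that mark fibroblasts were also counted in these other lineages. As a percentage of its own fibroblast level in the *SM22-SmoM2* library, *Penk* stood at 2.86% in endothelial, 1.47% in Schwann and 24.0% in immune cells. *Dpt*, a matrix protein gene of dermal fibroblasts, stood at 1.94%, 1.45% and 21.3%, and *Lox*, a collagen crosslinking enzyme gene, at 3.44%, 2.37% and 20.7%. *Pdgfra* stood at 2.77%, 5.88% and 35.5%, and *Col1a1* at 2.01%, 18.6% and 16.3%. In control immune cells *Penk* stood at 42.7% (25.7 to 66.7) of its control fibroblast level, above *Dpt* at 9.31%, *Lox* at 6.09%, *Pdgfra* at 9.70% (3.56 to 21.1) and *Col1a1* at 9.64%. RNA shed from fibroblasts and cells captured in pairs were not tested as sources of the *Penk* UMIs in these lineages.

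Depth differed between lineages, so every cell was also thinned at random to 3000 UMIs before cells with a gene were counted. At that depth *Penk* was found in 91 of 1063 control fibroblasts, 8.56% (6.95 to 10.4), and in 540 of the 1081 deep enough ones of the *SM22-SmoM2* library, 49.95% (46.9 to 53.0). Schwann cells, whose median depths were 5975 and 5545.5 UMIs, are given for comparison and had it in 0.296% and 3.35%. Endothelial cells had it in 0.329% and 4.17%, and muscle cells in 0.369% and 2.63%. Immune cells had it in 0 of 91 in the control and in 6 of 32 in *SM22-SmoM2*, 18.75% (7.21 to 36.4). Without thinning, 217 and 688 fibroblasts had at least 1 *Penk* UMI.

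*Tac1* was found at 3000 UMIs in 5.64% (4.33 to 7.21) of control fibroblasts and 7.86% (6.33 to 9.63) of those with active Smo, against 0.444% and 0.743% of Schwann cells. The fibroblast intervals overlap. Immune cells had *Tac1* in 0 of 91 in the control and in 2 of 32 in *SM22-SmoM2*. The latter share, 6.25% (0.77 to 20.8), overlaps that of the fibroblasts. *Cck* was found in 1.79% (1.08 to 2.78) of control fibroblasts. No *SM22-SmoM2* fibroblast of 1081 had it, and the upper limit of that share is 0.341%. *Gcg* was found in 3.76% (2.70 to 5.09) and 0.278% (0.0573 to 0.809). Without thinning, the cells with a UMI numbered 125 and 162 for *Tac1*, 42 and 3 for *Cck*, and 63 and 5 for *Gcg*.

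The RNA of each precursor was concentrated in few cells. The fewest cells that together held 50% of the *Penk* UMIs were 20 in the control and 67 in the *SM22-SmoM2* library, and the highest single cells held 70 and 326 UMIs. For *Tac1* these cells numbered 16 and 24, with highest cells of 38 and 30 UMIs. *Cck* in the control was the most uneven, since 4 cells held 50% of its UMIs and 1 cell alone held 49 of the 230, or 21.3%. *Gcg* had 12 such cells and a highest cell of 29 UMIs. Cells with 20 or more *Penk* UMIs numbered 5 in the control and 169 in the *SM22-SmoM2* library.

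**Figure D2:**
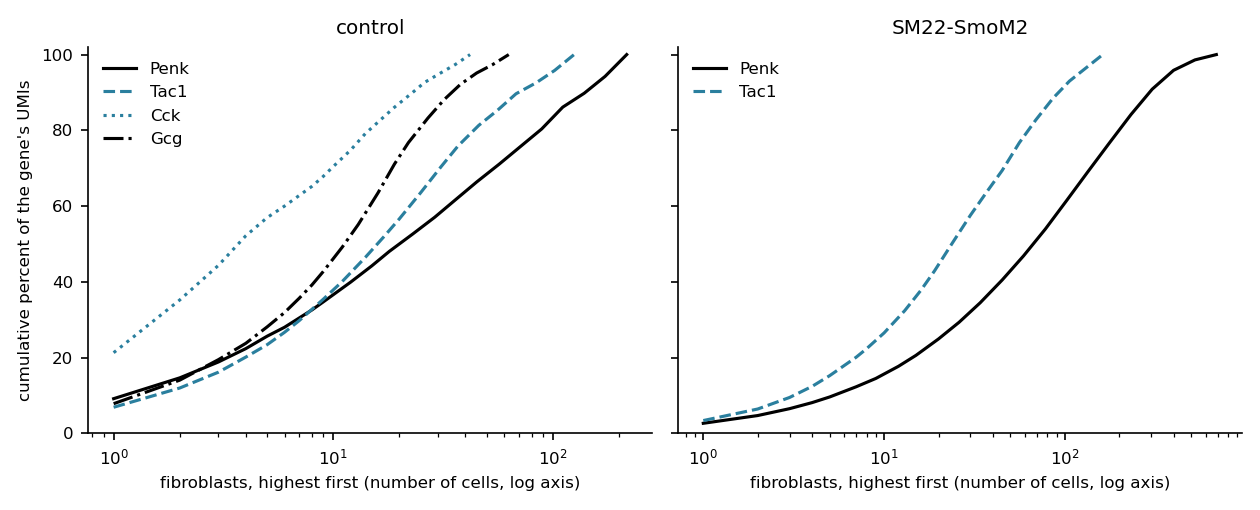
Cumulative share of each precursor's fibroblast UMIs (percent) against the number of cells counted from the highest down (log axis), for genes with at least 20 UMIs in the library. The *Cck* line of the control starts at 21.3% with 1 cell, and the *Penk* line of *SM22-SmoM2* reaches 50% at 67 cells.

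Fibroblasts were divided into 15 sub-clusters without use of the 4 genes, and 1 of these was left out as mixed. Each is called here by its 3 leading genes other than the 4 precursors. *Penk* itself led the *Igfbp4*, *Gpc3* and *Mest* sub-cluster, and *Gcg* came after *Apod* in the *Apod*, *Thbs4* and *Trf* one. *Penk* in the *SM22-SmoM2* library was highest in the sub-cluster led by *Igfbp4*, *Gpc3* and *Mest*, where 217 cells held 7545 UMIs, 61.7% of the library's fibroblast total, at 3119 CPM (3049 to 3190). After thinning, 91.2% of these cells had *Penk*. The next was the *Areg*, *Srxn1* and *Il1rl1* sub-cluster, with 193 cells at 1179 CPM (1137 to 1223) and 72.9% of cells. Both sub-clusters were nearly missing from the control, which had 12 and 8 cells in them.

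Of the 12 control cells in the *Igfbp4*, *Gpc3* and *Mest* sub-cluster, 6 had any *Penk* UMI. They held 97 UMIs at 788 CPM (639 to 961), which is 12.7% of all control fibroblast UMIs of the gene, and the 10 of the 12 cells that were called female held 47 of the 97. The 8 control cells of the *Areg*, *Srxn1* and *Il1rl1* sub-cluster had 1 UMI, 11.4 CPM (0.287 to 63.3). Most *Penk* of the control lay elsewhere, in the sub-cluster led by the metalloproteinase genes *Mmp3* and *Mmp13* and by *Wisp2*, whose 230 cells held 450 UMIs, 58.9% of the total, at 159 CPM (145 to 174).

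Other *SM22-SmoM2* sub-clusters were intermediate. The proliferating cells led by *Gm26870*, *Ube2c* and *Ccnb1* had 562 CPM of *Penk*, and those led by *Egfl6*, *Dkk1* and *Wif1* had 449 CPM. Levels were 253 CPM in the *Sfrp5*, *Cldn1* and *Wfdc1* sub-cluster and 153 CPM in the *Egfl6*, *Sox11* and *Fam212a* sub-cluster. Of those with at least 20 cells, the lowest was the sub-cluster led by *a* (agouti), *Ibsp* and *Cd24a*, found only in the *SM22-SmoM2* library with 45 cells, where 6 UMIs gave 20.2 CPM (7.43 to 44.0). In this order the intervals of neighbors do not overlap, except those of the *Egfl6*, *Sox11* and *Fam212a* cells (133 to 176) and of the *Mmp3*, *Mmp13* and *Wisp2* cells of this library (117 CPM, 99.8 to 137).

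**Figure D3:**
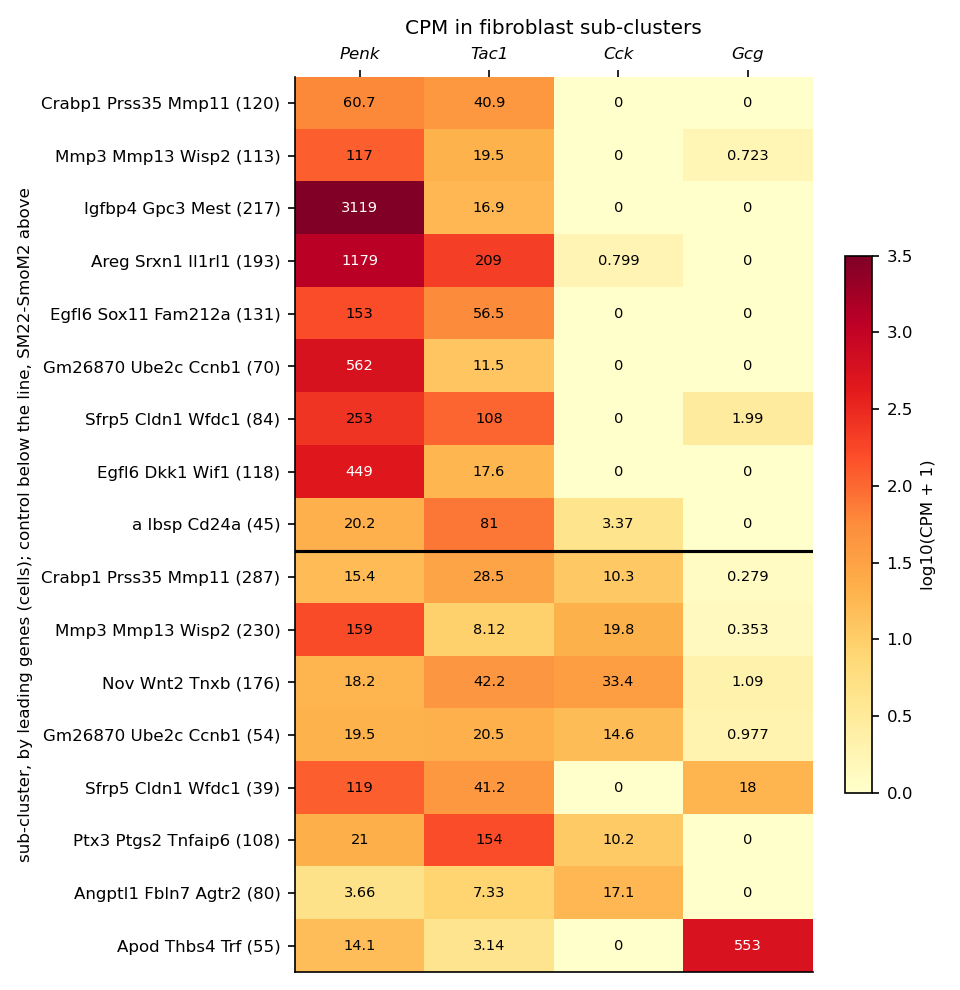
Heat map of CPM for the 4 precursors (columns) in fibroblast sub-clusters with at least 20 cells (rows, with cell numbers in parentheses), *SM22-SmoM2* above the black line and control below; color is log10(CPM + 1) and each cell prints its CPM. *Penk* peaks at 3119 CPM, *Gcg* at 553 CPM in a single control row, and *Cck* at 33.4 CPM in the control, while its *SM22-SmoM2* rows reach 3.37 CPM.

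Of the sub-clusters, 3 held at least 50 cells of each library, and they allow the genotypes to be set side by side within the same sub-cluster. In the *Crabp1*, *Prss35* and *Mmp11* sub-cluster (287 and 120 cells) *Penk* was 15.4 and 60.7 CPM, a log2 ratio of 1.98 (1.48 to 2.49). In the proliferating sub-cluster (54 and 70 cells) it was 19.5 and 562 CPM, a log2 ratio of 4.85 (4.21 to 5.57). Genes of cell division led this sub-cluster, and whether it holds the same kinds of fibroblast in both libraries was not tested. In the *Mmp3*, *Mmp13* and *Wisp2* sub-cluster (230 and 113 cells) it was 159 and 117 CPM, a log2 ratio of -0.44 (-0.71 to -0.18). In summed UMIs the gene was thus lower, not higher, in the *SM22-SmoM2* cells of the sub-cluster that held most control *Penk*. After thinning, 21.3% (16.2 to 27.2) and 18.2% (11.5 to 26.7) of its cells had the gene, with overlapping intervals. In its male cells *Penk* was 167 and 95.3 CPM. In its female cells it was 138 and 321 CPM, the latter on 15 UMIs of 6 cells. Over the 3 sub-clusters summed, the *Penk* log2 ratio was 1.55 (1.39 to 1.72), against 4.16 over all fibroblasts. In this sum, proliferating cells held 538 of the 789 *SM22-SmoM2* UMIs. The *Mmp3*, *Mmp13* and *Wisp2* cells held 450 of the 525 control UMIs. The summed ratio is therefore not a level shared by the 3 sub-clusters.

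The level of the Hh targets *Gli1*, *Gli2* and *Ptch1*, summed, was set beside the precursors by sub-cluster. This is a description, and a relation between target and precursor levels was not tested. These are genes that the pathway switches on, and in fibroblasts they had log2 ratios of 2.54, 1.96 and 3.595, with 5.77 for *Hhip*, an inhibitor made by responding cells. In proliferating cells the target sum was 6.84 CPM for the control and 228 CPM for *SM22-SmoM2*, and the *Penk* log2 ratio was 4.85. The target sum was 27.9 and 27.5 CPM in the *Mmp3*, *Mmp13* and *Wisp2* cells, where the *Penk* log2 ratio was -0.44. In the *Crabp1*, *Prss35* and *Mmp11* cells the target sum was 11.5 CPM (8.22 to 15.5) and 20.5 CPM (13.8 to 29.2). These intervals overlap, while *Penk* had a log2 ratio of 1.98 there. In the 12 control cells of the *Igfbp4*, *Gpc3* and *Mest* kind the target sum was 252 CPM (171 to 357), close to the 279 CPM (258 to 300) of the *SM22-SmoM2* cells there.

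Groups with high targets varied in *Penk*, and this too is given without a test. The *a*, *Ibsp* and *Cd24a* sub-cluster had a target sum of 465 CPM (391 to 550) and the lowest *Penk* among its library's sub-clusters with at least 20 cells. The *Sfrp5*, *Cldn1* and *Wfdc1* cells had 399 CPM (361 to 440) of targets, an overlapping interval, and 253 CPM of *Penk*. The 8 control cells of the *Areg*, *Srxn1* and *Il1rl1* sub-cluster had a target sum of 114 CPM (54.4 to 209) and 1 *Penk* UMI. In single cells of the *SM22-SmoM2* library at 3000 UMIs, *Penk* was found in 44.6% (40.8 to 48.5) of 666 fibroblasts without a target UMI, in 60.7% (54.2 to 66.9) of 239 with 1, and in 55.7% (48.0 to 63.2) of 176 with 2 or more. In *SM22-SmoM2* fibroblasts with *Penk*, the target sum was 234 CPM (211 to 259), and in those without it was 178 CPM (158 to 200).

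**Figure D4:**
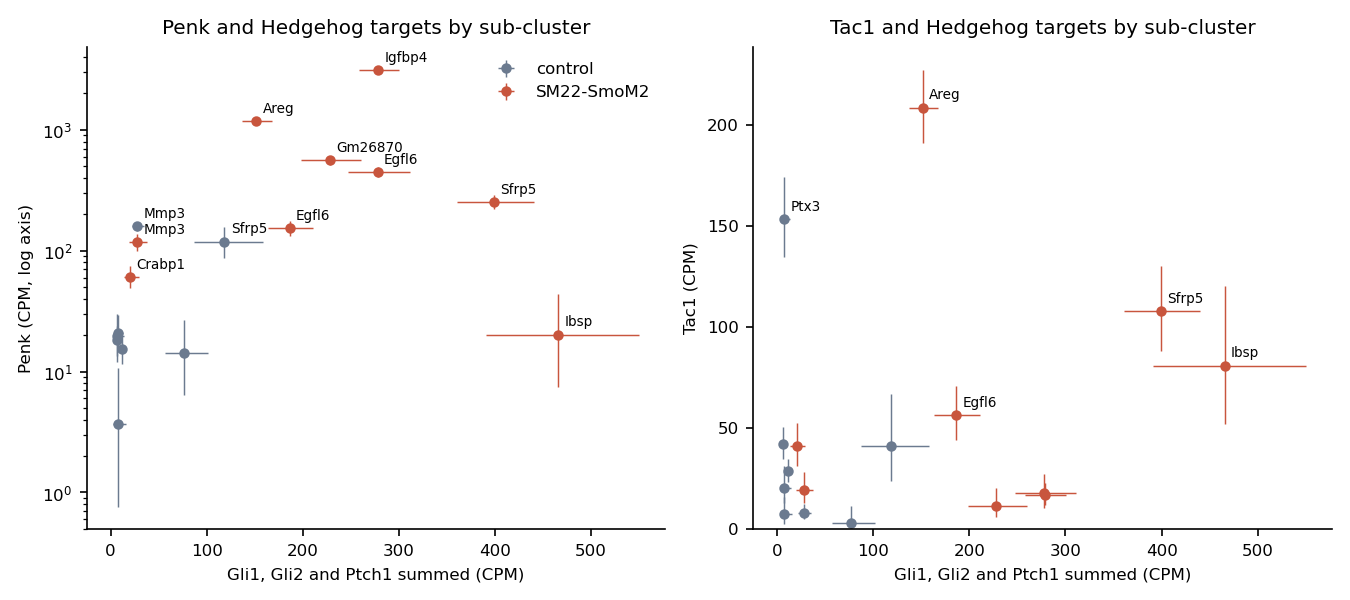
*Penk* (left, log axis) and *Tac1* (right, linear axis) in CPM against the summed CPM of *Gli1*, *Gli2* and *Ptch1*, 1 point per fibroblast sub-cluster and library with at least 20 cells; lines are 95% counting intervals and labels give a leading gene. The *Ibsp* point lies at 465 CPM of targets with 20.2 CPM of *Penk*, and the highest *Tac1* points are *Areg* (209 CPM, *SM22-SmoM2*) and *Ptx3* (154 CPM, control).

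Genes of the fibroblast and promoter lists did not all go the same way between cells with *Penk* and the others. In *SM22-SmoM2* fibroblasts thinned to 3000 UMIs, *Dpt* was 207 CPM (186 to 231) in cells with *Penk* and 476 CPM (443 to 510) in cells without. *Col1a1* was also lower with *Penk*, at 13043 against 17659 CPM. *Pdgfra* was higher, at 131 CPM (114 to 150) against 103 CPM (87.9 to 120), with overlapping intervals. *Lox* was 280 and 275 CPM. *Tagln*, whose promoter drove the system, was 146 CPM (128 to 166) and 234 CPM (211 to 258). Of the Hh targets, *Gli2* was 19.8 CPM (13.5 to 27.9) in cells with *Penk* and 8.01 CPM (4.26 to 13.7) in those without. *Gli1* was 39.5 and 32.7 CPM, *Ptch1* 175 and 137 CPM, and *Hhip* 46.3 and 28.3 CPM. For each of these targets the intervals overlap. *Smo* was 58.6 and 57.9 CPM. In control fibroblasts, which do not carry the active form, *Smo* was 65.9 CPM with *Penk* and 50.8 CPM without. Whether the *Smo* UMIs include the introduced form was not tested. *Dpt* in the control was 1161 CPM (1037 to 1296) with *Penk* and 1236 CPM (1196 to 1277) without.

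The sub-cluster with the largest part of the *Tac1* UMIs differed between the genotypes. In the control, 108 cells led by *Ptx3*, *Ptgs2* and *Tnfaip6*, genes known from inflamed tissue, held 241 of the 551 UMIs, at 154 CPM (135 to 174), and 23.1% of them had the gene after thinning. No *SM22-SmoM2* cell fell in that sub-cluster. In the *SM22-SmoM2* library the *Areg*, *Srxn1* and *Il1rl1* sub-cluster held 522 of 886 UMIs, at 209 CPM (191 to 227), and 22.9% of its cells had the gene. The 8 control cells of that sub-cluster had 22 *Tac1* UMIs in 3 cells, at 250 CPM (157 to 378). The level there was thus not particular to *SM22-SmoM2*.

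Other *Tac1* rested on few cells. The *Sfrp5*, *Cldn1* and *Wfdc1* sub-cluster of the *SM22-SmoM2* library had 108 CPM, but its 108 UMIs were in 7 of 84 cells. After thinning, *Tac1* was found in 7.66% (5.75 to 9.95), 7.95% (4.85 to 12.1) and 8.52% (4.85 to 13.7) of *SM22-SmoM2* fibroblasts with 0, 1 and 2 or more Hh target UMIs, and these intervals overlap. Within the shared sub-clusters its log2 ratio was 0.52 (0.04 to 1.00) in *Crabp1*, *Prss35* and *Mmp11* cells, 1.27 (0.41 to 2.13) in *Mmp3*, *Mmp13* and *Wisp2* cells, and -0.84 (-2.03 to 0.28) in proliferating cells. The last interval includes 0, and the 3 summed gave 0.39 (0.01 to 0.77).

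*Cck* was spread thinly over control sub-clusters. The *Nov*, *Wnt2* and *Tnxb* sub-cluster, with 176 cells, held 92 of the 230 UMIs at 33.4 CPM (27.0 to 41.0). The *Mmp3*, *Mmp13* and *Wisp2* sub-cluster held 56, all in 4 cells, at 19.8 CPM. Levels of 10.2 to 17.1 CPM were found in 4 further sub-clusters, and no UMI was found in the *Apod*, *Thbs4* and *Trf* or the *Sfrp5*, *Cldn1* and *Wfdc1* cells of the control. The difference between genotypes was also present within the 3 shared sub-clusters, where *Cck* had 108 UMIs in 571 control cells and 0 in 303 *SM22-SmoM2* cells. With 3 UMIs over the group taken as the limit of a count of 0, the bound on the UMI level is 18.4-fold lower. The control UMIs lay in only 8 *Crabp1*, *Prss35* and *Mmp11* cells, 4 *Mmp3*, *Mmp13* and *Wisp2* cells and 5 proliferating cells. Such a bound covers counting error of UMIs and not the spread between cells. The bounds in the single sub-clusters were 5.05-, 9.12- and 4.67-fold.

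*Gcg*, by contrast, came from 1 group of cells. The *Apod*, *Thbs4* and *Trf* sub-cluster, with 55 control cells, held 352 of the 370 UMIs (95.1%), at 553 CPM (496 to 613), and 50 of the 55 cells had at least 1 UMI. The *SM22-SmoM2* library had 3 cells in it. With this sub-cluster set aside, the log2 ratio of *Gcg* was -2.08 (-4.10 to -0.48). Its 5 UMIs in *SM22-SmoM2* fibroblasts were in 5 cells, so the 2 genotypes could not be compared within this sub-cluster.

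The *Gcg* cells differed from other cells of the fibroblast class in its markers. In control cells with *Gcg* at 3000 UMIs, *Lox* was 25 CPM (5.16 to 73.1) and *Dpt* 33.3 CPM (9.08 to 85.3), against 386 and 1276 CPM in cells without. *Pdgfra*, a growth factor receptor of fibroblasts, was 117 CPM (63.8 to 196) against 80.8 CPM (71.1 to 91.5), and *Col1a1*, a main collagen gene, was 11275 against 24811 CPM. *Tagln* had no UMI in the 40 cells. Of the cells in this sub-cluster, 43 were called male and 0 female. It is named here by its leading genes alone. The sum of *Gli1*, *Gli2* and *Ptch1* was 75.0 CPM (34.3 to 142.4) in the 40 cells, on 9 UMIs. In control fibroblasts without *Gcg* it was 23.1 CPM (18.1 to 29.2). In the *Apod*, *Thbs4* and *Trf* cells of the control it was 76.9 CPM. Of the control sub-clusters with at least 20 cells, only the *Sfrp5*, *Cldn1* and *Wfdc1* one was higher, at 118.5 CPM.

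The lists of other cell types were checked in the fibroblasts that held each precursor at 3000 UMIs. All 6 neuroendocrine markers were at 0 in control cells with *Penk*, *Cck* or *Gcg* and in *SM22-SmoM2* cells with *Penk*, *Tac1* or *Gcg*, and 5 of 6 were at 0 in the 60 control cells with *Tac1*. The control *Cck* cells numbered 19 and the *SM22-SmoM2* *Gcg* cells 3. In fibroblasts without each gene, 4 of 6 were at 0 in the control and 5 of 6 in *SM22-SmoM2*. These zeros therefore do not set the cells with a precursor apart. Of 8 neuron markers, 8 were at 0 in control cells with *Cck*, 7 in those with *Penk*, 7 in those with *Tac1* and 6 in those with *Gcg*. In the far larger groups of control cells without each gene, 3 of 8 were at 0. Control cells with *Gcg* had 5 UMIs of neuron markers, 41.7 CPM against 7.82 CPM in cells without. For *Tac1* the sums were 11.1 and 9.0 CPM, for *Penk* 3.66 and 9.60 CPM, and for *Cck* 0 and 9.26 CPM. In the *SM22-SmoM2* library 4 of the 8 were at 0 in cells with *Penk* and 5 in cells with *Tac1*, with 35 and 12 UMIs of neuron markers in all. These are 21.6 and 47.1 CPM, against 30.2 and 24.1 CPM in cells without. Immune markers summed to 394 CPM in control cells with *Tac1* and 74.4 CPM in those without. In control cells with *Penk*, *Cck* or *Gcg* they summed to between 16.7 and 44.0 CPM, and without to between 93.6 and 97.1 CPM. They summed to 43.8 and 11.8 CPM in *SM22-SmoM2* cells with *Penk* and *Tac1*, and to 24.6 and 36.1 CPM in those without. Endothelial markers were at 47.1 to 88.9 CPM, muscle markers at 16.7 to 51.0 CPM and Schwann markers at 0 to 38.9 CPM in these 6 groups of cells. The 3 *SM22-SmoM2* cells with *Gcg* are not among these groups and had 2 endothelial and 1 Schwann marker UMIs. The part of immune RNA in the *Tac1* values was not tested.

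The sexes were not evenly divided between libraries, so levels were also taken within each. *Penk* in fibroblasts called male was 46.6 CPM in the control and 958 CPM in *SM22-SmoM2* (643 and 817 cells), a log2 ratio of 4.36 (4.22 to 4.51). In fibroblasts called female it was 79.7 and 1673 CPM (200 and 48 cells), a ratio of 4.39 (4.16 to 4.63). The intervals of the ratio overlap. *Tac1* was 38.6 and 78.8 CPM in male cells, a ratio of 1.03 (0.85 to 1.22), but 32.4 and 12.95 CPM in female cells, a ratio of -1.32 (-2.81 to -0.13) that rests on 78 and 6 UMIs.

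Among control cells given a sex, *Cck* and *Gcg* were almost wholly in male cells. *Cck* had 205 UMIs in 33 of the 643 male fibroblasts and 0 UMIs in the 200 female ones. *Gcg* had 302 UMIs in male and 1 UMI in female fibroblasts. The number of mice of each sex in a library is not given in the sources used here, so the sex of a cell and the mouse it came from cannot be told apart.

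Cells with more than 1 precursor were fewer than cells with 1. At 3000 UMIs, 19.2% of control fibroblasts had 1 of the 4 genes and 0.282% had 2, and in the *SM22-SmoM2* library 49.4% had 1 and 4.35% had 2. No cell had 3 at that depth. Without thinning, 36 control and 108 *SM22-SmoM2* fibroblasts had 2 of the genes, 3.39% and 9.82%. A further 3 and 2 fibroblasts had 3. At 3000 UMIs *Penk* and *Tac1* were found together in 47 *SM22-SmoM2* cells. If the genes were spread over cells independently, 42.5 would be, a quotient of 1.11 (0.82 to 1.46). Within sub-clusters the independent count was 47.1, and 32 of the 47 cells were in the *Areg*, *Srxn1* and *Il1rl1* sub-cluster. Both independent counts lie within the counting error of the 47 cells.

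In the control, few cells held both *Penk* and *Tac1*. The random thinning used above left 0 cells with both, against 5.14 by independence over all fibroblasts and 3.59 by independence within sub-clusters. Averaged over all possible thinnings, 2.78 cells held both against 5.26, a quotient of 0.529. Without thinning 17 cells held both against 25.5, a quotient of 0.666 whose interval (0.389 to 1.06) includes 1. The other control pairs were rarer. *Penk* with *Gcg* averaged 1.62 cells against 3.70, *Tac1* with *Gcg* 0.513 against 2.34, and *Tac1* with *Cck* 1.68 against 1.13. *Cck* and *Gcg* were not found in the same cell at any depth.

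The genes whose pattern was most like each precursor were found by Pearson's r of log2(CPM + 10) over 25 groups of lineage or sub-cluster and library, among 11392 genes. The groups share their library and depth, and the r is a description. For *Penk* these were *Zim1* (0.90), *Galnt3* (0.89), *Slc40a1* (0.88), *Nme4* (0.86) and *Peg3* (0.85). *Zim1* and *Peg3* are imprinted genes, *Slc40a1* codes for the iron exporter ferroportin, and *Galnt3* for an enzyme that starts O-linked sugar chains. For *Tac1* they were *Srrm4* (0.88), *Bdkrb1* (0.81), *Il1rl1* (0.80), *Has1* (0.78) and *Gfpt2* (0.78), of which *Bdkrb1* codes for a bradykinin receptor and *Il1rl1* for the interleukin-33 receptor.

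For *Cck* the highest were *Engase* (0.83), *Tnfrsf11b* (0.83), *Islr2* (0.81), *Nov* (0.80) and *Camkk1* (0.80), with *Tnfrsf11b* coding for osteoprotegerin. For *Gcg* they were *Epyc* (0.98), *Cst6* (0.98), *Abca6* (0.96), *Foxd1* (0.95) and *Col2a1* (0.95). *Epyc* is a small proteoglycan gene and *Col2a1* a collagen gene, both best known from cartilage. The *Gcg* values rest on the *Apod*, *Thbs4* and *Trf* group.

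Of 61 other peptide precursor genes, 18 had no UMI in fibroblasts of either library and 14 had at least 20 UMIs. Of these 14, 3 were higher by a log2 ratio of 1 or more and 4 lower by as much, with a median of 0.09. Over all genes with 20 UMIs, 6.38% were higher and 6.09% lower, with a median of -0.06. *Gal*, the galanin precursor gene, went from 36 to 186 UMIs, 2.59 CPM (1.81 to 3.58) against 14.9 CPM (12.8 to 17.2), a log2 ratio of 2.53 (2.004 to 3.08). *Calca*, the gene for calcitonin and CGRP, had 6 and 18 UMIs, and *Scg2*, a granin gene, had 1 and 19.

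The lower 4 were *Nmb* (neuromedin B), with 108 and 31 UMIs, *Apln* (apelin), with 44 and 10, *Npy* (neuropeptide Y), with 33 and 12, and *Scg3*, a granin gene, with 33 and 4. *Npy* was 2.37 and 0.96 CPM in fibroblasts, against 65.6 and 8.42 CPM in Schwann cells. *Apln* was 3.16 and 0.80 CPM in fibroblasts and far higher in endothelial cells (below). RNA shed from those cells was not tested as a source of these fibroblast UMIs. *Nucb2*, the nesfatin precursor gene, was 98.6 and 79.0 CPM, and *Adm*, the adrenomedullin gene, was 25.997 and 32.01 CPM. *Pdyn* and *Pnoc*, the other opioid precursor genes of the list, had no UMI in fibroblasts, whereas *Pomc* had 17 and 26.

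The receptors of these peptides were mostly missing from fibroblasts. Of 13 listed genes 7 had no UMI, among them *Oprd1* and *Oprm1*, the delta and mu opioid receptor genes, and *Cckar* and *Cckbr*. A count of 0 in fibroblasts allows up to 0.215 CPM in the control and 0.240 CPM in *SM22-SmoM2*. At least 20 UMIs were found for 2, of which 0 were higher and 0 lower by a log2 ratio of 1: *Ogfr*, the opioid growth factor receptor gene, at 54.0 and 71.9 CPM, and *Ackr3*, an atypical receptor gene whose product binds opioid peptides as well as chemokines, at 66.8 and 39.2 CPM. *Ackr3* was lower elsewhere, at 9.65 CPM in control endothelial and 10.8 CPM in control Schwann cells.

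*Tacr1*, the substance P receptor gene, was an endothelial gene here. It had 4 and 0 UMIs in fibroblasts but 153 and 40 in endothelial cells, 23.1 CPM (19.6 to 27.0) in the control and 22.4 CPM (16.02 to 30.5) in *SM22-SmoM2*. The intervals overlap. Fibroblasts with *Tac1* and endothelial cells with its receptor gene were thus both present in each library.

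The enzymes that mature such peptides were present in part. Of 17 listed genes 14 had at least 20 UMIs, with 1 higher, 4 lower and a median log2 ratio of -0.47, against 6.38% higher, 6.09% lower and a median of -0.06 over all genes with 20 UMIs. *Pcsk1*, the convertase gene best known from endocrine cells, had no UMI in fibroblasts, and its relative *Pcsk2* had 11 and 4. *Furin*, the convertase of the general secretory route, was 56.2 and 52.4 CPM, and *Cpe*, the carboxypeptidase E gene, was 378 and 377 CPM. *Ctsl*, the cathepsin L gene, was the highest of the list in fibroblasts, at 787 and 397 CPM. Its log2 ratio of -0.99 (-1.04 to -0.94) fell just short of the limit of -1. The tyrosine sulfotransferase genes *Tpst1* and *Tpst2* were 124 and 129 CPM and 81.0 and 80.8 CPM. *Pcsk5*, another convertase gene, was 44.0 and 78.8 CPM, a log2 ratio of 0.84 (0.70 to 0.99).

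The 4 lower genes were *Pam*, *Qpct*, *Pcsk6* and *Scg5*. *Pam*, whose product makes the C-terminal amide from the glycine marked above, was 152.6 and 72.9 CPM, a log2 ratio of -1.07 (-1.18 to -0.95). *Qpct*, the glutaminyl cyclase gene, had a ratio of -1.26, *Pcsk6* of -2.73 and *Scg5*, a helper of *Pcsk2*, of -1.43 on 18 and 6 UMIs. *Pcsk1n*, a convertase inhibitor gene, was the higher one, with 11 and 33 UMIs. In Schwann cells *Pam* was 271 and 275 CPM and in endothelial cells 152 and 153 CPM.

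Peptidases that break such peptides down had 14 of 14 listed genes with at least 20 UMIs, 0 higher and 4 lower, with a median log2 ratio of -0.29, beside the 6.38%, 6.09% and -0.06 over all genes. The lower ones were *Enpep* (-2.32), *Dpp4* (-2.21), the peptidase that inactivates GLP-1, *Ace* (-1.79) and *Fap* (-1.53). *Ace* was 64.6 and 18.6 CPM in fibroblasts but 106 and 97.6 CPM in endothelial cells. *Mme*, the gene for neprilysin, which degrades enkephalins and substance P, was 12.8 and 9.12 CPM in fibroblasts, a ratio of -0.49 (-0.84 to -0.14).

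**Figure D5:**
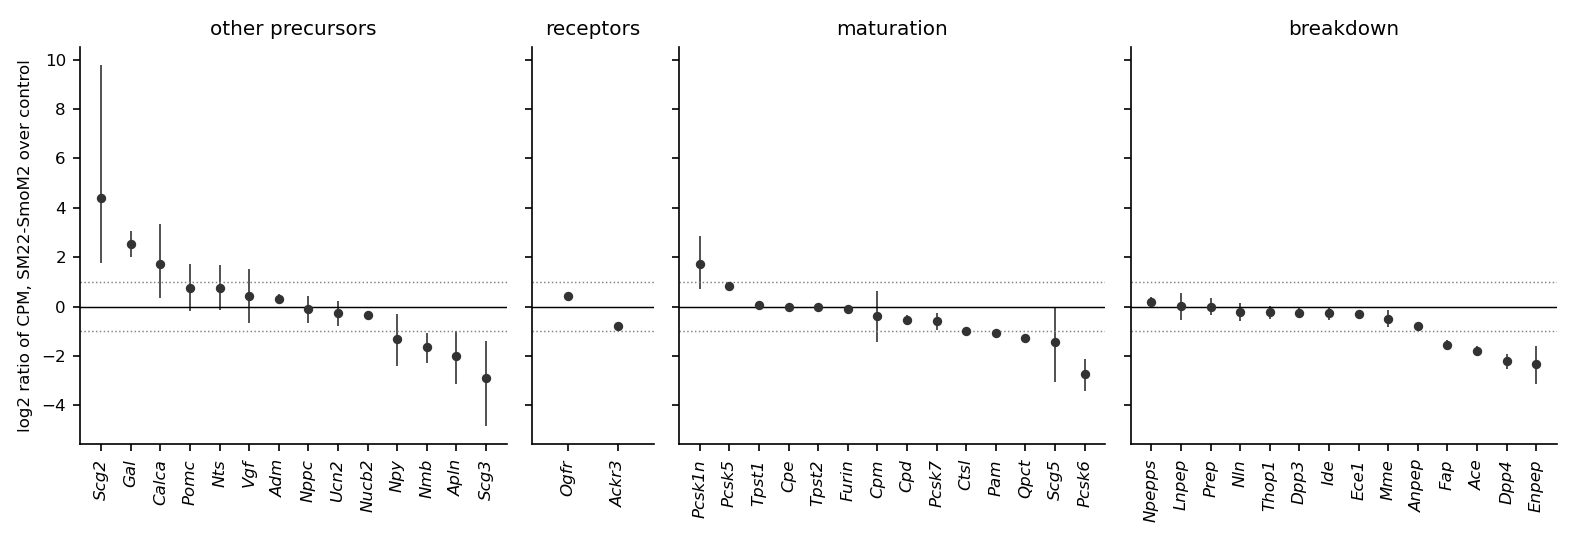
Log2 ratio of CPM in fibroblasts, *SM22-SmoM2* over control, for the other precursors, receptors, maturation enzymes and breakdown enzymes with at least 20 UMIs; points are ratios, lines 95% counting intervals, and dotted lines mark ratios of 1 and -1. *Gal* stands at 2.53 among the precursors, and the breakdown panel runs from 0.19 for *Npepps* to -2.32 for *Enpep*.

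The promoter windows were searched on both strands for 4 short motifs, as a description of the letters in 250 bases before the RefSeq start (GRCm38.p6). Windows were held for *Tac1*, *Cck* and *Gcg*, but not for *Penk*. The cyclic AMP response element TGACGTCA was in 0 of these 3 and in 1.77% of all 27025 genes with a window, a related form, TGCGTCA, in *Tac1* and *Cck* and in 1.998% of all genes, and the E-box CACGTG in *Tac1* and *Cck* and in 6.86%. The Gli motif GACCACCCA was in 0 of the 3 and in 0.255% of all genes. The matches did not overlap each other. TGCGTCA is shown with 10 bases on each side, motif in capitals, because it is the rarer of the motifs found in these windows. Distances count from the RefSeq start, which for *Tac1* lies inside the GENCODE gene printed above. The *Tac1* stretch shown ends just before the GENCODE start at 7554879, and its E-box lies inside that gene.
Tac1, 199 bases before the start (chr6:7554852-7554878, plus strand): tccctaaaatTGCGTCAtttcgaacac
Cck, 49 bases before the start (chr9:121495727-121495753, minus strand): cctgctggacTGCGTCAgcactgggta
A match is a run of letters and not a measured binding site.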

How the data were processed

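Tomato+ dermal cells were profiled with the 10x Chromium Single Cell 3′ v2 kit, 1 library per genotype. The authors deposited UMI counts for each gene in each cell, made by the authors with bcl2fastq and Cell Ranger on mm10 (versions not given in the sources used here), without normalization. The barcode list covers the whole kit, so barcodes shared between libraries could not be counted.

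Cells with at least 200 genes and at most 10% mitochondrial UMIs were kept, 22 control and 10 *SM22-SmoM2* cells being left out. No doublets were removed; Scrublet at an expected 5% marked 7 control (0.245%) and 10 *SM22-SmoM2* barcodes (0.558%). Counts were scaled to 10000 per cell and logged, and k-means (K = 20, then 15 for fibroblasts) was run on 20 components of 2000 variable genes, without 129 genes of the lists, the 4 precursors included (Python 3.11.15, scanpy 1.11.5, scikit-learn 1.9.0, numpy 2.4.6, scipy 1.17.1, leidenalg 0.10.2). Lineages were named from marker lists, which required 3 markers with 10 CPM and a level 1.5 times that of the median cluster. Cluster 13 (136 cells) and a fibroblast sub-cluster (41 control cells), in whose top 10 genes the markers of a different lineage outnumbered the expected ones (in the sub-cluster 1, *Mlana*, against 0), were left out as mixed. These limits were chosen with the clusters in view.

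Intervals are exact Poisson (CPM), exact conditional (ratios) and Clopper-Pearson (shares). Floors are 3 UMIs over the group. The sex of a cell was taken as male where Y-linked genes had UMIs and *Xist* had 0, and as female for the reverse. Genes were named as the 4 members, as genes of the fixed lists with 20 fibroblast UMIs and a log2 ratio of 1 or more either way or a main role for a member, and as the 5 genes most like each member. The members and the lists were chosen with earlier results of these data known. Calculations were tested on simulated data.

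Alternatives were other mitochondrial limits, doublet removal, other clusterings, thinning, single sexes, shared sub-clusters and the mean of per-cell CPM. Columns of other samples numbered 0.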

Additional observations from a re-analysis of the deposited data

Results flagged for a closer look

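*Penk* differed in direction between fibroblast sub-clusters when UMIs were summed. Its log2 ratio of *SM22-SmoM2* over control was 1.98 in *Crabp1*, *Prss35* and *Mmp11* cells and 4.85 in proliferating cells, but -0.44 in *Mmp3*, *Mmp13* and *Wisp2* cells. In the latter the shares of thinned cells with *Penk* had overlapping intervals, and female cells went the other way on 15 *SM22-SmoM2* UMIs. With 1 library per genotype the difference was not tested.

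*Tac1* had a log2 ratio of 1.03 in fibroblasts called male and of -1.32 in those called female, where it rests on 48 *SM22-SmoM2* cells with 6 UMIs. The difference was not tested.

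Among cells left out for mitochondrial UMIs, which no comparison uses, *Penk* had 8 UMIs in 2 of 10 *SM22-SmoM2* cells, 163 CPM (70.4 to 321), above the 9.57 CPM that 1 UMI gave in the control cells left out.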

How the results depend on the processing

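The cells of each genotype came from 1 library, so no replicate could be left out. No paired analysis was possible because each group has 1 library. Of 105 values under 22 settings, 78 stayed within the reported interval, 26 moved and 1 reversed; the alternatives that leave out or keep the mixed sub-cluster, the highest cells or sub-clusters, and the mean over all thinnings, were chosen after seeing the data. The cause of the changes was not tested. The log2 ratio of *Tac1* reversed to -1.32 in female cells and was 1.03 in male cells, 0.39 in shared sub-clusters and 1.52 after thinning to 1500 UMIs. That of *Penk* was 4.39 in female cells, 4.36 in male cells, 1.55 in shared sub-clusters and 3.27 without the *Igfbp4*, *Gpc3* and *Mest* sub-cluster. In the shared sub-clusters, 538 of the 789 *SM22-SmoM2* *Penk* UMIs were in proliferating cells. *Cck* was at most -4.20 in shared sub-clusters and at most -2.71 after thinning to 1500 UMIs. Both are bounds with fewer counts and do not cover the spread between cells. *Gcg* was -4.44 after that thinning and -2.08 without the *Apod*, *Thbs4* and *Trf* sub-cluster. The *Penk* and *Tac1* quotient in the control, 0 at the reported random thinning, was 0.986 with a 5% mitochondrial limit and 0.832 without a limit, each with a new random thinning. The fibroblast share of the 4 genes' UMIs in the control was 96.6% with Leiden clustering, 97.5% with K = 12 and 10, 88.2% after thinning to 1500 UMIs, 97.0% in male cells, 85.0% in female cells, 96.5% with the mixed sub-cluster kept, and 89.2% when thinned cells with a gene were counted. In *SM22-SmoM2* it was 96.8% with a 5% mitochondrial limit, 98.7% without barcodes of both sexes, 98.6% after thinning to 1500 UMIs, 98.7% in male cells, 97.9% in female cells and 94.5% when thinned cells were counted. *Cck* and *Gcg* in female cells and *Gcg* in shared sub-clusters gave no ratio. *Cck* and *Gcg* in *SM22-SmoM2* fibroblasts rest on 3 and 5 UMIs.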

Other observations

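Some other peptide genes of the list were highest in other lineages of the sorted cells. *Npy* was a Schwann cell gene, with 309 control UMIs at 65.6 CPM (58.5 to 73.4) and 17 *SM22-SmoM2* UMIs at 8.42 CPM (4.91 to 13.5). *Ucn2*, the urocortin 2 gene, was also highest in Schwann cells, at 60.9 CPM (54.1 to 68.4) and 27.7 CPM (20.96 to 36.0). *Apln*, a peptide gene of growing vessels, was 159 CPM (150 to 169) and 107 CPM (91.9 to 123) in endothelial cells. *Chga*, the chromogranin A gene best known from endocrine cells, was also endothelial here, with 187 and 31 UMIs at 28.2 CPM (24.3 to 32.5) and 17.4 CPM (11.8 to 24.7). *Cpe* was highest in muscle cells, at 1128 and 990 CPM.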
